A study of Homo sapiens with 6 samples.

Results

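The untreated states of PC-9 and HCC827, the EGFR-mutant non-small cell lung cancer lines of the series, were set side by side here. The comparison rests on 2 of the 6 Clarion S arrays, chosen by their labels: the control array of each line. EGFR, the epidermal growth factor receptor, is labelled mutant in both lines. Neither control received erlotinib, an inhibitor of the kinase activity of EGFR, and both are controls of a 6-hour treatment. The other arrays served as a background for reading the differences. They are PC-9 and HCC827 after 6 hours with 0.01 µM erlotinib, and H322, an EGFR wild-type lung cancer line, as a control and after 6 hours with EGF, the ligand of EGFR (labelled 100 µg/ml). By the labels the medium held tumour necrosis factor alpha (TNF-alpha), and they do not settle whether the control cultures received it. TNF-alpha switches on many inflammatory genes, and its part in the immune values was not tested. Each line is represented by 1 array per treatment, and a line, its culture and its array cannot be told apart. No difference between the lines could be tested, and all are given as values without a replicate check. More cells with a transcript and more transcript per cell cannot be told apart on bulk arrays.

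Lung adenocarcinoma cell lines keep different amounts of the identity of the epithelium they came from. The transcription factor NKX2-1 drives surfactant and other alveolar genes, whereas genes of the epithelial-mesenchymal transition (EMT), such as vimentin and N-cadherin, mark a shift towards a motile, matrix-producing state. A mutated EGFR signals without ligand through the RAS-ERK and PI3K-AKT pathways. Interferon-stimulated genes encode antiviral effectors and are switched on through the JAK-STAT pathway or directly by IRF factors, and the transcription factor NRF2 drives detoxifying and reducing enzymes when its inhibitor KEAP1 lets it go.

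The 2 lines differed in many genes. Signals are given as log2(intensity + 1), and a gene counts as higher in a line when it was at least 2-fold brighter there after dim signals had been raised to the background of their array. That background is the level which 95 percent of the array's negative control probe sets do not exceed, 7.34 on the PC-9 array and 7.27 on the HCC827 array. A fold with a dim signal on one side is a lower bound, written "at least". Of 17687 named genes, 1603 (9.06%) were higher in HCC827 and 1881 (10.6%) were higher in PC-9, and 359 and 451 of these rest on a lower bound. At 4-fold the counts were 495 (2.8%) and 656 (3.71%). At 16-fold they were 126 (0.712%) and 144 (0.814%). Among the 9608 genes above background in at least 1 of the lines, 36.3% were called. For scale, erlotinib against control within a line called 2.24% of genes in PC-9 and 3.89% in HCC827, and 2.45% of the negative control probe sets passed the same rule between the control arrays. Between the erlotinib arrays of the lines the rule called 20.3% of genes, 9.94% higher in HCC827 and 10.3% higher in PC-9. Of the 3484 genes called on the control arrays, 2773 (79.6%) were called there in the same direction.

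**Figure D1:**
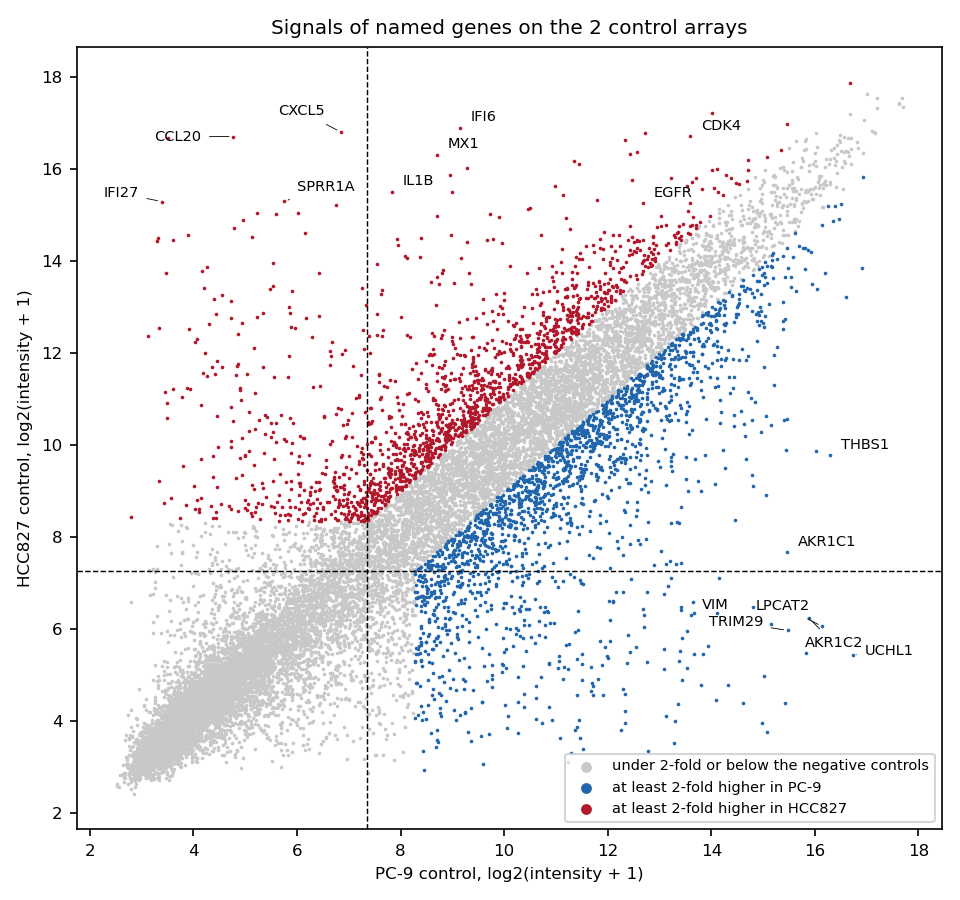
Signals of the 17687 named genes, log2(intensity + 1), on the PC-9 control array (horizontal axis) and the HCC827 control array (vertical axis), with the background of each array as a dashed line. Red points are the 1603 genes at least 2-fold higher in HCC827 and blue points the 1881 higher in PC-9; IFI27, CCL20 and CXCL5 lie far up on the left, UCHL1 and AKR1C2 far down on the right.

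The widest gaps in HCC827 included 4 SPRR genes and 5 interferon-stimulated genes, and those in PC-9 were mostly genes of different families. In HCC827 the 15 largest were the chemokines CXCL5 and CCL20, the antimicrobial peptide gene DEFB4A, the cornified-envelope genes SPRR1A, SPRR3, SPRR2D and SPRR2A, the interferon-stimulated genes IFI27, IFI6, IFI44L, IFIT1 and MX1, the cytokine IL1B, the proline dehydrogenase gene PRODH and TCN1, which encodes a vitamin B12 carrier. DEFB4A had a signal of 3.51 in PC-9 and 16.68 in HCC827, at least 649-fold apart. PRODH was at least 236-fold and TCN1 at least 154-fold higher in HCC827. In PC-9 the largest gaps were those of UCHL1, a deubiquitinase known from neurons, LPCAT2, an enzyme of phospholipid remodelling, and AKR1C2, an aldo-keto reductase of steroids and aldehydes. They stood at least 702-fold, 467-fold and 391-fold higher. IGFBP7, TRIM29, OLR1, KLK6, VGLL1, AKR1C1, SULF2, ANTXR1, FILIP1L, CALB2, KLK5 and INHBA completed the 15. The receptors and proteases among them include OLR1, the receptor of oxidised low-density lipoprotein (at least 286-fold), and the kallikrein-related proteases KLK6 and KLK5 (at least 237-fold and 133-fold).

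Of the 4 themes examined, the immune lists had the largest share of measured genes called. Of 275 measured immune genes 45.5% were called, 86 higher in HCC827 and 39 higher in PC-9, against 19.7% of all genes. Many immune genes are silent in all cells but leukocytes, so the share among genes above background in either line is the closer comparison: 63.1% for the immune lists and 36.3% for all genes. That share was 64.1% for lineage lists, 51.7% for signalling lists and 47.4% for metabolic lists.

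Interferon-stimulated genes were the clearest group. Of 42 measured, 39 were higher in HCC827 (92.9%, against 9.06% of all genes). Another 1 was higher in PC-9 and 2 were above background in neither line. The median signal of the list was 7.98 in PC-9 and 13.45 in HCC827, and the median fold of the 39 genes was 27.0. IFI27, a mitochondrial interferon-induced protein gene, had a signal of 3.38 in PC-9 and 15.30 in HCC827. IFIT1, whose product binds viral RNA caps, stood at 5.59 and 15.02, at least 205-fold apart. IFI6 was measured in both lines, at 9.15 and 16.91, and was 217-fold higher in HCC827. MX1, a GTPase that blocks viral replication, was 196-fold higher, at 8.71 against 16.32. The smallest gap among the 39 was that of the transcription factor IRF1, 10.29 in PC-9 and 11.39 in HCC827, or 2.14-fold. The exception was GBP4, a guanylate-binding protein, which stood at least 5.22-fold higher in PC-9, whereas GBP1, GBP2 and GBP3, also on chromosome 1, were 3.65-fold, 2.98-fold and 3.19-fold higher in HCC827.

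The promoters of 3 of these genes are shown because the interferon-stimulated response element (ISRE), the site bound by IRF and STAT complexes, can be read in them. Each sequence is the 250 bases before the RefSeq start site on GRCh38.p14, 5′ to 3′ on the strand of the gene, with matches to the ISRE letters (GAAA, any 2 bases, GAAA) on either strand in capitals. IFI27 lies at chr14:94110486-94110735 (plus strand), IFIT1 at chr10:89392373-89392622 (plus strand) and IFI6 at chr1:27672193-27672442 (minus strand).
IFI27: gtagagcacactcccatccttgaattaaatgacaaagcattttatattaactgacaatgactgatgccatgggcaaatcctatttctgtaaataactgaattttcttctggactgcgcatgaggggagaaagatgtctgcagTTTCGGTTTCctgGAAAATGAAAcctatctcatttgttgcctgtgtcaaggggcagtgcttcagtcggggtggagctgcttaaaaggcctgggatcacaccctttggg
IFIT1: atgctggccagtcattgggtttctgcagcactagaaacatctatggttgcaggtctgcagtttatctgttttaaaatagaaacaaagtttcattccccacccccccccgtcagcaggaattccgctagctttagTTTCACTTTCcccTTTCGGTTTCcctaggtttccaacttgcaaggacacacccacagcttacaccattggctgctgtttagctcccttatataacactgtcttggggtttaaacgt
IFI6: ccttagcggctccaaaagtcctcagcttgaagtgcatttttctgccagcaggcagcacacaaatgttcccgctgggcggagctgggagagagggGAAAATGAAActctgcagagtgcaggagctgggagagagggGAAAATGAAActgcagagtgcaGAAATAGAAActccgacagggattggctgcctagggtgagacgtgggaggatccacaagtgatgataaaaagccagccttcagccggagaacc
IFI27 and IFIT1 each carry 2 matches and IFI6 carries 3, with first bases between -156 and -93 from the start site. Over the window searched, 250 bases before to 50 after the start, 21 of 32 interferon-stimulated promoters held the letters (65.6%), against 442 of all 14236 promoters (3.10%). Among the genes higher in HCC827 the share was 5.26% and among those higher in PC-9 it was 1.70%. ISRE matches overlapped those of the NF-kappaB letters used below in 2 promoters. Such a match is a description of the sequence and not evidence of binding in these cells.

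The gap stood on the erlotinib arrays too. All 39 genes were called higher in HCC827 on the erlotinib arrays, where the list medians were 8.23 for PC-9 and 13.74 for HCC827. The list median in H322 was 10.16. Of the 39 genes, H322 lay within 2-fold of PC-9 alone for 15 and of HCC827 alone for 4. H322 had IFI6 at 14.60 and MX1 at 4.77, so the genes did not move as one block across the 3 lines. Genes for the interferons themselves stayed below background on all 6 arrays: IFNB1, IFNG, IFNK, IFNW1, IFNL1, IFNL2, IFNL3 and the alpha interferon genes IFNA1, IFNA2, IFNA5, IFNA6, IFNA8 and IFNA13. IFNB1 stood at 4.39 in PC-9 and 5.12 in HCC827, which is no measured level in either.

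**Figure D2:**
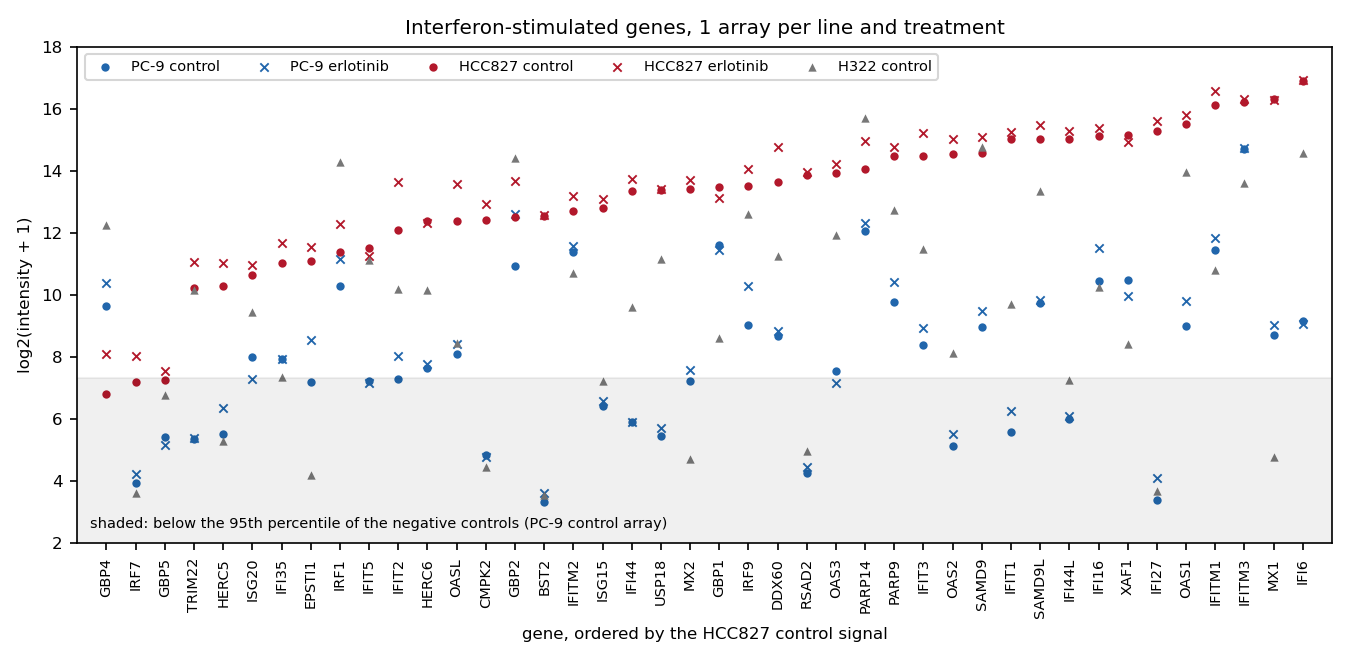
Signals of the 42 measured interferon-stimulated genes, log2(intensity + 1), on the control and erlotinib arrays of PC-9 (blue) and HCC827 (red) and on the H322 control array (grey), 1 array per symbol, with genes ordered by the HCC827 control signal. Within a treatment the red symbol lies above the blue one for 41 genes and below it for GBP4; the shaded zone is the background of the PC-9 control array.

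A list of innate immune sensors and their partners split between the lines. It also holds genes that do not sense nucleic acid, among them TLR1, TLR6 and PYCARD. Of 30 measured, 6 were higher in HCC827 (20%, against 9.06% of all genes) and 4 in PC-9 (13.3%, against 10.6%). The RNA sensors among those called, TLR3 included, were all higher in HCC827. The RNA sensors IFIH1 (MDA5), RIGI and DHX58 (LGP2) were 17.7-fold, 6.07-fold and 8.69-fold higher in HCC827, and TBK1, the kinase that activates IRF3, was 19.8-fold higher there, at 11.14 in PC-9 and 15.45 in HCC827. The DNA sensor CGAS was 6.26-fold higher in PC-9, at 12.06 against 9.41. PYCARD, the adaptor of inflammasomes, had a signal of 12.71 in PC-9 and was below background in HCC827, at least 43.3-fold apart. The surface receptors TLR6 and TLR1 were 12.5-fold and at least 2.84-fold higher in PC-9. All but 1 of these 10 genes kept their direction and call on the erlotinib arrays.

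Chemokines pointed to HCC827 without exception among those called: 11 of 31 measured genes were higher there and 0 were higher in PC-9, while 16 were above background in neither line. The share of all genes higher in HCC827 was 9.06%. CXCL5, a neutrophil attractant, had a signal of 6.84 in PC-9, below background, and 16.82 in HCC827. CCL20, the ligand of CCR6 on T helper 17 cells and dendritic cell precursors, stood at 4.77 and 16.71. CXCL1 was 61.5-fold and CXCL6 at least 43.5-fold higher in HCC827. CXCL8, which encodes interleukin 8, was well above background in PC-9 as well, at 10.99, and reached 15.65 in HCC827, a 25.3-fold gap. The T-cell attractant CXCL10 was below background in PC-9 and stood at 11.69 in HCC827. H322 resembled HCC827 in CCL20 (14.99) and CXCL8 (14.91) but not in CXCL5 (8.21) or CXCL1 (5.94). The CXCL genes sit together on chromosome 4: RASSF6, CXCL8, CXCL6, CXCL1, CXCL5, CXCL3, CXCL2 and EREG formed a run of 8 neighbours above background that were all higher in HCC827.

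The promoters of CXCL5 and CCL20, the chemokines with the widest gaps, are shown for their match to the NF-kappaB letters (GGG, any 2 bases, TTTCC), sought on both strands and printed in capitals. The sequences are again the 250 bases before the RefSeq start on GRCh38.p14, in the direction of the gene, at chr4:73998678-73998927 (minus strand) for CXCL5 and chr2:227813592-227813841 (plus strand) for CCL20.
CXCL5: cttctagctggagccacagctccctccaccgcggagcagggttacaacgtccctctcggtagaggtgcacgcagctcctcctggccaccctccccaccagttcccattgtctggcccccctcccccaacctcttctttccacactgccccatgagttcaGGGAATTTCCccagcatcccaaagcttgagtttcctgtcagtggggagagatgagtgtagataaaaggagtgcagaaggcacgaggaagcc
CCL20: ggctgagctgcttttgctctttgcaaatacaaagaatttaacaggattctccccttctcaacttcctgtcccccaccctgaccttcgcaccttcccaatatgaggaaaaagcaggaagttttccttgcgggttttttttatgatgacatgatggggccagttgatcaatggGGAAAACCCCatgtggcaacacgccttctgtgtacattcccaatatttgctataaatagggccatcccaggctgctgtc
The match begins at -91 from the start of CXCL5 and at -79 from that of CCL20, where it lies on the opposite strand. Of 24 chemokine promoters 6 held the letters (25%), all of them genes higher in HCC827, namely CXCL1, CXCL2, CXCL3, CXCL5, CXCL6 and CCL20. In all promoters the share was 1.93%. Among all genes higher in HCC827 it was 2.75% and among those higher in PC-9 it was 2.48%.

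Components and other targets of NF-kappaB did not share the direction of the chemokines. Of 23 measured, 5 were higher in each line (21.7%). Of all genes 9.06% were higher in HCC827 and 10.6% in PC-9. NFKBIA and NFKBIZ, an inhibitor and a co-regulator of the pathway, were 4.26-fold and 3.76-fold higher in HCC827, as was PTGS2, the inducible cyclooxygenase, at 13.8-fold. RELB, a subunit of the non-canonical pathway, the inhibitor NFKBIE and the adaptor TRAF1 were 5.38-fold, 4.95-fold and 27.3-fold higher in PC-9. TNFRSF11B, the decoy receptor osteoprotegerin, stood at least 17.1-fold higher in PC-9.

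Cytokine genes were divided too. Of 50, 9 were higher in HCC827 (18%, against 9.06% of all genes) and 10 in PC-9 (20%, against 10.6%). The interleukin-1 family led in HCC827. IL1B had 7.84 in PC-9 and 15.52 in HCC827, a 206-fold gap. IL1A was at least 24.1-fold and IL37 at least 20.9-fold higher, and the 3 genes lie in a run of 5 on chromosome 2 with SLC20A1 and CKAP2L. TNFSF10, which encodes the death ligand TRAIL, was 31.1-fold higher in HCC827. PC-9 had more LTB (lymphotoxin beta, 26.8-fold), IL32 (25.2-fold), IL27RA (9.24-fold) and CSF1, the macrophage growth factor (5.22-fold). The complement list had CFB 28.2-fold, CFI at least 15.2-fold and C4BPA at least 13.1-fold higher in HCC827 but C3 22.9-fold and C1S 12.3-fold higher in PC-9.

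Antigen presentation and checkpoint genes differed gene by gene. B2M, the light chain of HLA class I, was within 2-fold between the lines (1.29-fold). The immunoproteasome subunits PSMB8, PSMB9 and PSMB10 and the peptide transporter TAP1 were between 2.95-fold and 5.46-fold higher in HCC827. ERAP2, which trims peptides, was 21.3-fold higher in PC-9. CD74, the invariant chain of HLA class II, had a signal of 13.09 in PC-9 and was below background in HCC827, at least 56.6-fold apart. HLA genes are polymorphic, and a probe can read the alleles of 2 lines unequally, so the gaps of HLA-C, HLA-DQB1 and HLA-DRB1 (2.04-fold, at least 5.42-fold and 2.41-fold) are uncertain. Among checkpoint genes, CD274 (PD-L1) was 8.62-fold higher in HCC827, at 9.91 against 13.02, and PDCD1LG2 (PD-L2) was 5.46-fold higher in PC-9, at 10.90 against 8.45. HHLA2, a B7 family ligand, had 3.29 in PC-9 and 14.45 in HCC827. IDO1, which degrades tryptophan, was at least 27.6-fold and CEACAM1 27.8-fold higher in HCC827, whereas NECTIN2 and CD276 were 13.7-fold and 3.43-fold higher in PC-9. A further list of 22 measured genes held natural killer cell ligands, adhesion molecules and complement regulators. Of these, 6 were higher in PC-9 (27.3%, against 10.6% of all genes) and 1, ULBP3, in HCC827 (4.55%, against 9.06%). Those higher in PC-9 included the adhesion receptor CD44 (6.39-fold), the natural killer ligand MICB (5.65-fold) and the complement regulator CD59.

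Both lines carried the markers of an epithelial cell. EPCAM, CDH1, KRT8, KRT18 and KRT19 had signals between 12.88 and 16.70 in the 2 lines, and none of the 6 measured keratins of simple epithelia was called in either direction. Of 20 measured leukocyte markers 3 were above background in either line. CD68, a lysosomal protein gene not limited to leukocytes, was 4.13-fold higher in HCC827, at 11.18 and 13.22, ITGAM was at 8.29 in PC-9 and below background in HCC827, at least 2.03-fold apart, and CSF1R was at 7.38 in both. Of 19 fibroblast and endothelial markers 2 were above background in either line and none was called: CDH5 in PC-9 alone, at 8.003, and COL1A2 in both, at 7.77 in PC-9 and 8.002 in HCC827. The leukocyte markers PTPRC, CD3E and CD14, the fibroblast markers COL1A1, DCN and LUM, and the endothelial markers PECAM1, VWF and KDR were below background on both control arrays. The neuroendocrine markers CHGA, SYP and INSM1 were below background too. Of 28 epithelial identity genes, 6 were higher in HCC827 (21.4%, against 9.06% of all genes) and 4 in PC-9 (14.3%, against 10.6%). E-cadherin (CDH1) was 2.43-fold and the transcription factor ELF3 10.7-fold higher in HCC827, and GRHL2, an epithelial transcription factor, was 2.68-fold higher in PC-9.

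More alveolar genes were higher in HCC827 than in PC-9. Of 24 measured genes of the lung alveolus and endoderm, 8 were higher in HCC827 (33.3%, against 9.06% of all genes). Another 3 were higher in PC-9 (12.5%, against 10.6%). H322 lay within 2-fold of PC-9 alone for 7 of the 8. NKX2-1 had 5.79 in PC-9 and 10.09 in HCC827. SFTA2, a surfactant-associated gene, stood at 4.55 and 13.28, and SLC34A2, the phosphate transporter of alveolar type 2 cells, at 4.39 and 13.17. LPCAT1, which makes surfactant lipid, was 53.3-fold higher in HCC827, and LAMP3, a lamellar body protein gene, was 29.6-fold higher. NAPSA, the aspartic protease that processes surfactant protein B, was above background in HCC827 alone (11.83). Not all alveolar genes were on in HCC827: SFTPB, SFTPC and ABCA3 were below background in both lines, as was the endoderm factor FOXA2. PC-9 had more ETV5 (7.90-fold), CAV1 (3.18-fold) and GATA6 (2.45-fold). ETV5 is also an output of ERK signalling and was within 2-fold between the erlotinib arrays of the lines, at 9.16 and 9.59.

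The airway and the basal and squamous lists had more members higher in HCC827 as well. Of 25 airway genes 8 were higher there (32%, against 9.06% of all genes) and 2 in PC-9 (8%, against 10.6%). The 8 included CEACAM5 (108-fold, 9.28 in PC-9 and 16.04 in HCC827), PIGR (at least 87.5-fold), the mucin-folding gene AGR2 (at least 84.8-fold) and LCN2 (16.9-fold). The 2 were SLPI and WFDC2, 2.24-fold and at least 27.0-fold higher in PC-9. Of 23 basal and squamous genes 8 were higher in HCC827 (34.8%) and 4 in PC-9 (17.4%). SPRR1A had 5.75 in PC-9 and 15.31 in HCC827, and 8 SPRR genes formed an unbroken run on chromosome 1, all below background in PC-9. The SPRR2 genes are near-identical copies whose probes may share signal. SOX2, a stem cell and squamous factor, was at least 17.7-fold higher in HCC827. PC-9 had more TRIM29, a basal cell marker (at least 295-fold), ITGB4 (8.43-fold) and SERPINB5 (6.56-fold).

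The mesenchymal genes that were called were all higher in PC-9. Of 28 EMT genes measured, 14 were higher in PC-9 and 0 in HCC827, with a median fold of 20.3 among the 14; 10.6% of all genes were higher in PC-9. Vimentin (VIM) had 13.61 in PC-9 and 6.31, below background, in HCC827. SPARC, a matrix glycoprotein, stood at 13.36 and 4.37. THBS1, which encodes thrombospondin 1, was measured in both lines at 16.30 and 9.79, and COL6A1 stood at least 83.8-fold higher in PC-9. H322 was below background in VIM (5.81), SPARC (4.30) and COL6A1 (5.70), and lay within 2-fold of HCC827 alone for 9 of the 14 genes. ZEB1, the repressor of epithelial genes, was below background in both lines, at 6.03 and 5.26, as were ZEB2 and TWIST1. Another EMT transcription factor, SNAI2, was among the 14 genes higher in PC-9, and so was N-cadherin (CDH2). SNAI1 and TWIST2 were above background in at least 1 line and were not called. The vimentin of PC-9 stood beside E-cadherin at 12.88. Of 24 integrins 7 were higher in PC-9 and 0 in HCC827, led by ITGB5 (8.86-fold), ITGB4 and ITGB8 (4.78-fold).

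Some genes usually silent in lung were called in PC-9 and others in HCC827. UCHL1 had 16.73 in PC-9 and 5.44 in HCC827. It came with the neural adhesion genes NRCAM (at least 95.3-fold) and L1CAM (at least 4.83-fold), while the other 14 of 17 neuroendocrine and neuronal genes were above background in neither line. The UCHL1 promoter is shown because it is rich in CpG, the dinucleotide whose methylation can silence a promoter. The 250 bases before its start on GRCh38.p14, at chr4:41256678-41256927 (plus strand), hold 20 CpG, printed in capitals.
UCHL1: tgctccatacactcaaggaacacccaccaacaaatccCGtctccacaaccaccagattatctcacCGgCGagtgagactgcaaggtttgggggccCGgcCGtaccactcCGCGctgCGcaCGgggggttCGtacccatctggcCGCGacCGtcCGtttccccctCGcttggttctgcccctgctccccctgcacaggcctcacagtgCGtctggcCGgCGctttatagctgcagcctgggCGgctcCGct
Methylation was not measured here. Cancer-testis genes are normally expressed in the germ line. Of 31 measured, 4 were higher in PC-9 (12.9%, against 10.6% of all genes) and 2 in HCC827 (6.45%, against 9.06%). Another 22 were above background in neither line. Those higher in PC-9 included MAGEA6 (45.1-fold), MAGEA3 (at least 29.4-fold) and MAGEA2 (at least 19.1-fold) on chromosome X. MAGEA8 was not called, and no other MAGEA gene measured was above background. CT83 was at least 39.5-fold higher in HCC827. The MAGEA genes are close copies, as are the chorionic gonadotropin genes CGB1, CGB2, CGB3, CGB5 and CGB8 that formed a run of 5 in PC-9, and their probes may share signal. Of 18 measured genes of gut epithelium 2 were higher in HCC827 (11.1%, against 9.06% of all genes) and 0 in PC-9. They were HNF4G (at least 17.97-fold) and MUC13 (at least 11.9-fold), and 15 of the 18 were above background in neither line. Of 23 HOX genes 21 were above background in neither line, so no difference could be seen for them. The other 2, HOXB7 and HOXC10, were not called.

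Over the genome, 4.53% of all genes were above background in HCC827 alone and 4.6% in PC-9 alone. A promoter counted as CpG-rich at 50% GC and an observed over expected CpG ratio of 0.6. By that rule 404 of 636 promoters of genes above background in HCC827 alone (63.5%) and 433 of 648 in PC-9 alone (66.8%) were CpG-rich. Limited to those at least 4-fold apart, the shares were 58 of 135 in HCC827 (43.0%) and 116 of 187 in PC-9 (62.0%). For genes above background in both lines and 4-fold apart they were 75.1% where HCC827 was higher and 76.2% where PC-9 was higher. Of these 3 pairs of shares, the pair limited to 1 line and 4-fold lay farthest apart, and no difference in promoters was tested. The share was 84.3% for genes above background in both lines, 43.4% for genes above background in neither and 64.8% for all 14236 genes with a promoter.

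The receptor that defines the lines was itself unequal. EGFR had 12.68 in PC-9 and 15.27 in HCC827, a 6.04-fold gap that was 4.18-fold on the erlotinib arrays, and 11.62 in H322. Its partner ERBB3 was alike, at 12.43 and 12.08. Among the ligands, EREG (epiregulin) was at least 67.2-fold higher in HCC827 and HBEGF at least 11.8-fold higher in PC-9. The feedback inhibitor LRIG1 favoured PC-9, by at least 4.12-fold, and its relative LRIG3 favoured HCC827, by 2.15-fold. In all, 3 of 16 genes of the ERBB list were higher in HCC827 (18.75%, against 9.06% of all genes). Another 2 were higher in PC-9 (12.5%, against 10.6%).

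Neighbours of EGFR on chromosome 7 were higher in HCC827 with it. In RefSeq gene order from EGFR to CHCHD2, 10 measured genes were above background in at least 1 line and all 10 were higher in HCC827, on the control and on the erlotinib arrays. LANCL2, the next measured gene after EGFR, had 12.34 in PC-9 and 16.65 in HCC827, 19.8-fold apart. MRPS17, a mitochondrial ribosome gene, was 10.8-fold and the chaperonin gene CCT6A 3.90-fold higher. On the other side of EGFR the next 5 measured genes were mixed. POM121L12 and DDC were below background in both lines, and COBL and GRB10 were within 2-fold on the control arrays. FIGNL1, the farthest of the 5, was 3.34-fold higher in HCC827, at 8.60 and 10.34, and was called there on the erlotinib arrays too. COBL was called higher in PC-9 on the erlotinib arrays, at 10.05 against 8.62. LANCL2, VOPP1 and MRPS17 had 12.22, 13.43 and 10.60 in H322, near the PC-9 values. DNA copy number was not measured, so its part in these gaps was not tested.

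The cell cycle kinase CDK4 was another gene that came with its neighbours. It was 8.77-fold higher in HCC827, at 13.59 against 16.73. On chromosome 12, PIP4K2C, OS9, TSPAN31, CDK4 and METTL1 formed a run of 5 genes above background that were higher in HCC827, by 9.82-fold, 9.23-fold, 11.6-fold, 8.77-fold and 2.82-fold. NKX2-1 lay in a similar run on chromosome 14 with MBIP (7.33-fold), PAX9 (at least 5.48-fold), MIPOL1 (at least 2.81-fold) and FOXA1 (4.37-fold). NFKBIA, 4 measured genes before NKX2-1, was 4.26-fold higher. These windows were chosen after their values had been seen.

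**Figure D3:**
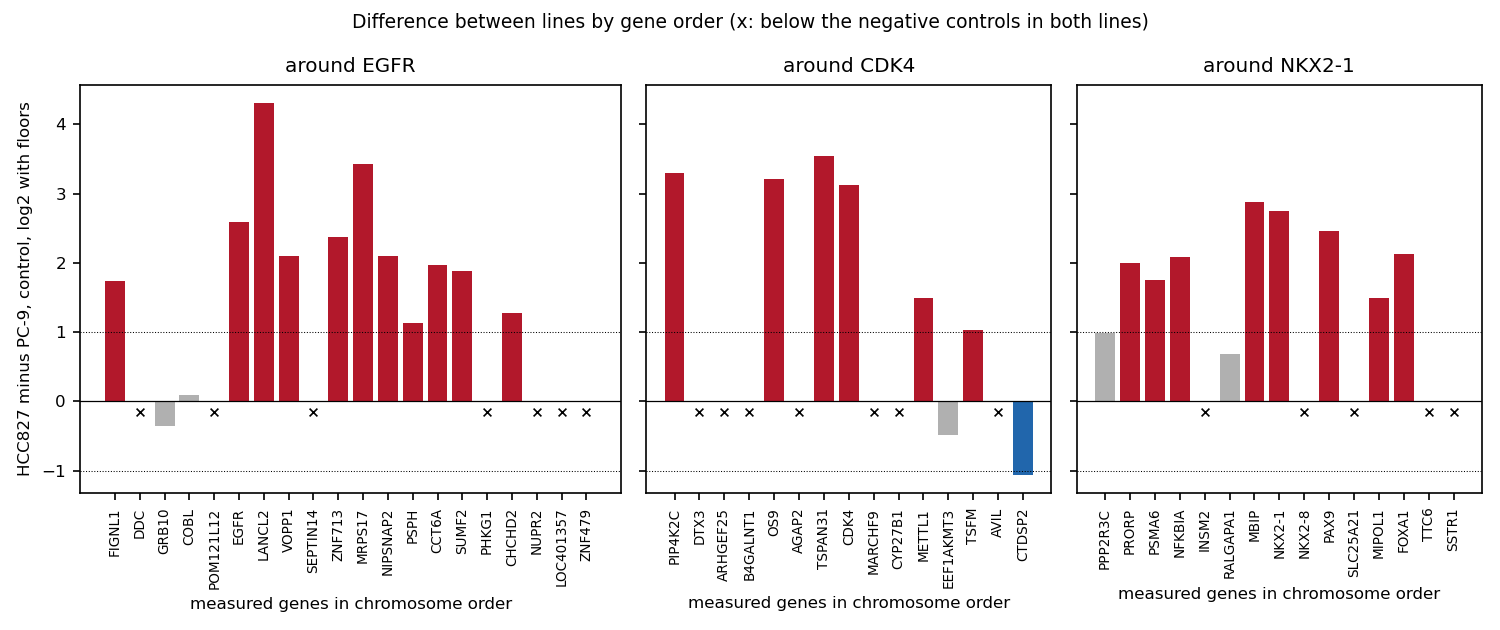
HCC827 minus PC-9 on the control arrays, in log2 with dim signals raised to the background, for measured genes in chromosome order around EGFR, CDK4 and NKX2-1; bars are red for genes at least 2-fold higher in HCC827, blue for those higher in PC-9 and grey for genes under 2-fold, and a cross marks a gene below background in both lines. Every bar from EGFR to CHCHD2 is red, with LANCL2 highest at 4.31, and on the other side of EGFR COBL and GRB10 lie within 2-fold and FIGNL1 at 1.74.

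Some chromosomes leaned one way. For comparison, 36.3% of the 9608 genes above background in either line were called, 1603 higher in HCC827 and 1881 higher in PC-9. On chromosome 14, 122 of the 321 genes above background in either line were higher in HCC827 (38.0%) and 24 were higher in PC-9 (7.48%). Chromosome 4 was also tilted to HCC827 (28.1% against 10.6%). Chromosome 13 was tilted to PC-9, with 53 of 165 genes higher there (32.1%) and 7.88% higher in HCC827. Chromosomes 10, 6, 22 and 15 had 30.6%, 29.2%, 27.8% and 27.3% of their genes higher in PC-9, and 13.0%, 10.8%, 11.1% and 7.67% higher in HCC827. Chromosome 9 was even, with 63 genes on each side. On chromosome 8, 27.7% were higher in HCC827 and 20.7% in PC-9, and runs of neighbours pointed in opposite directions. The 12 genes from LACTB2 to HNF4G were all higher in HCC827, among them TMEM70 (35.02-fold) and ELOC (14.8-fold). The 8 from POP1 to RNF19A were all higher in PC-9.

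**Figure D4:**
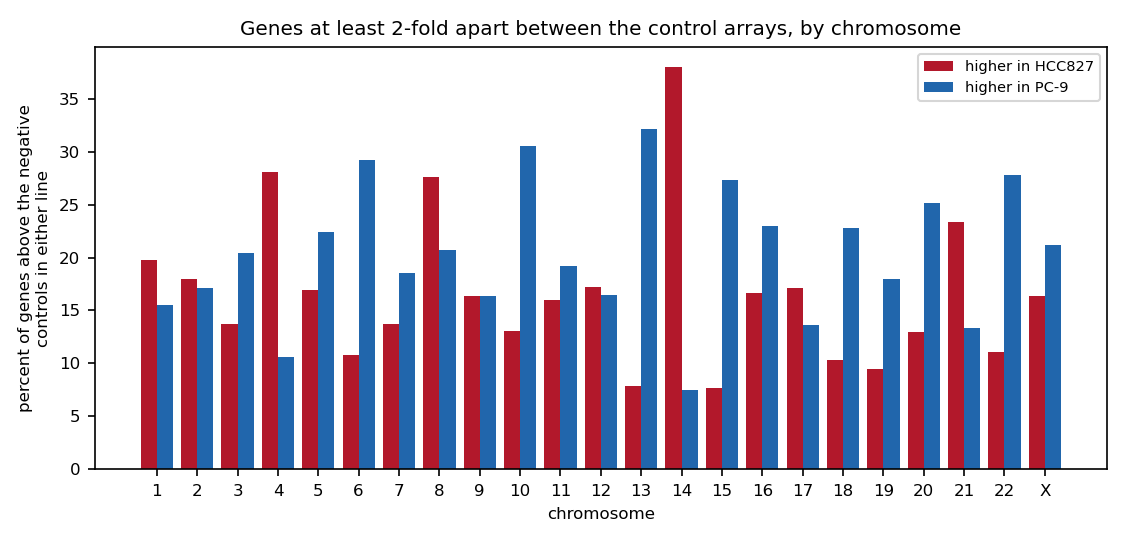
Percent of the genes above background in either line that were at least 2-fold higher in HCC827 (red) or in PC-9 (blue) on the control arrays, by chromosome. Chromosome 14 has the tallest red bar (38.0%) and chromosome 13 the tallest blue bar (32.1%).

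The CDKN2A locus on chromosome 9 was on in both lines. CDKN2A, which encodes the p16 and ARF inhibitors of the cell cycle, had 15.36 in PC-9 and 14.83 in HCC827 and was below background in H322 (3.67). MTAP, the adjacent salvage enzyme gene, was 2.78-fold higher in HCC827 and below background in H322 as well (4.46). CDKN2B, which encodes p15, was 5.08-fold higher in PC-9. The alpha interferon genes on the other side of MTAP were below background in all lines.

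Proliferation genes were higher in HCC827. Of 30 genes of G2/M and DNA replication, 21 were higher there (70%, against 9.06% of all genes) and 0 in PC-9. All 30 were above background in at least 1 line, where 36.3% of genes were called in either direction. The log2 difference was above 0 for all 30. The list median was 10.48 in PC-9 and 11.85 in HCC827. RRM2, a subunit of ribonucleotide reductase, was 9.85-fold higher, the replication factor gene GINS2 8.81-fold, the mitotic checkpoint kinase gene BUB1 5.93-fold and the origin licensing gene CDC6 5.76-fold. H322 was within 2-fold of HCC827 alone for 12 of the 21 and of PC-9 alone for 3. The inhibitor CDKN1A (p21) was 6.19-fold higher in PC-9, CCND1 was alike (14.61 and 14.49), and RB1 was 2.01-fold higher in PC-9. An E2F site (TTT followed by GGCGC, either strand) was found in 2 of 26 promoters of the list (7.69%) and in 0.857% of all promoters. Its share was 1.53% among all genes higher in HCC827 and 0.849% among those higher in PC-9. The median differences of this list kept their sign when the arrays were centred on their medians or quantile normalised.

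Outputs of ERK were split between the lines. Of 26 measured, 7 were higher in HCC827 (26.9%, against 9.06% of all genes) and 5 in PC-9 (19.2%, against 10.6%). The phosphatase DUSP6, the brake SPRY1 and PHLDA2 were 6.90-fold, 5.65-fold and 11.6-fold higher in HCC827, and EGR1 at least 5.62-fold. The ETS factors ETV5 and ETV4 were 7.90-fold and 3.17-fold higher in PC-9, and the ephrin receptor gene EPHA4 at least 3.61-fold. Of the 5 genes higher in PC-9, 2 were also called on the erlotinib arrays, against 5 of the 7 higher in HCC827. In the PI3K list 5 of 24 genes were higher in PC-9 (20.8%), with the inhibitor PIK3IP1 at 6.78-fold and the insulin receptor substrate IRS2 at least 4.09-fold. In HCC827 1 gene (4.17%), PIK3R1, was 2.35-fold higher.

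Other receptor kinases that were called were more often higher in PC-9. Of 43 measured, 27 were above background in neither line. Another 7 were higher in PC-9 (16.3% of the 43, against 10.6% of all genes) and 2 in HCC827 (4.65%, against 9.06%). AXL, a receptor tied to EMT and to resistance to EGFR inhibitors, had 10.37 in PC-9 and was below background in HCC827 (5.82) and H322 (5.44). Its ligand GAS6 was on in PC-9 too, at least 8.89-fold higher. IGF1R was 7.69-fold higher in PC-9, at 12.62 against 9.68. MET, another route of resistance, was within 2-fold (14.58 and 15.23). HCC827 had more MERTK, a relative of AXL (at least 6.68-fold), and FGFR4 (2.25-fold). PDGFB was 52.0-fold higher in PC-9.

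WNT, TGF-beta and BMP, and Hippo lists had more members higher in PC-9 than in HCC827. Over all genes 10.6% were higher in PC-9 and 9.06% in HCC827. Few Notch genes were called, and 12 of 21 were above background in neither line. JAG2 (2.08-fold) and HES4 (2.14-fold) were higher in HCC827 (9.52%) and MAML2 (3.17-fold) in PC-9 (4.76%). On the erlotinib arrays 0 Notch genes were called in either direction. Of 47 WNT genes 11 were higher in PC-9 and 1, the receptor FZD5, in HCC827. WNT5A and WNT7A were at least 12.0-fold and 11.5-fold higher in PC-9, as was the WNT inhibitor DKK1 (11.6-fold). Of 36 TGF-beta and BMP genes 13 were higher in PC-9, led by INHBA, an activin subunit (at least 117-fold), and BMP4 (at least 58.0-fold), and 3 were higher in HCC827, ACVR1 and the BMP targets ID1 (at least 21.2-fold) and ID2 (at least 4.62-fold). The ligand BMP4 and its targets ID1 and ID2 were higher in opposite lines, whereas ID3 and BAMBI were higher in PC-9 with BMP4. Of 26 genes of the Hippo list, which holds the co-activator genes YAP1 and WWTR1, the TEAD factors and genes tied to their activity, 12 were higher in PC-9, among them CCN2 (at least 34.7-fold), TEAD2 (13.7-fold) and AMOTL1 (at least 10.5-fold), and 1, AJUBA, was 7.21-fold higher in HCC827. VGLL1, a TEAD partner outside that list, had 15.09 in PC-9 and 3.76 in HCC827.

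Genes of cell death differed in both directions. BCL2A1, an anti-apoptotic NF-kappaB target, had 5.53 in PC-9 and 13.96 in HCC827. The BH3-only genes BID and BAD and the effector BAK1 were 9.56-fold, 5.56-fold and 3.58-fold higher in PC-9. BMF was at least 2.004-fold higher in HCC827 and sat just past the threshold.

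**Figure D5:**
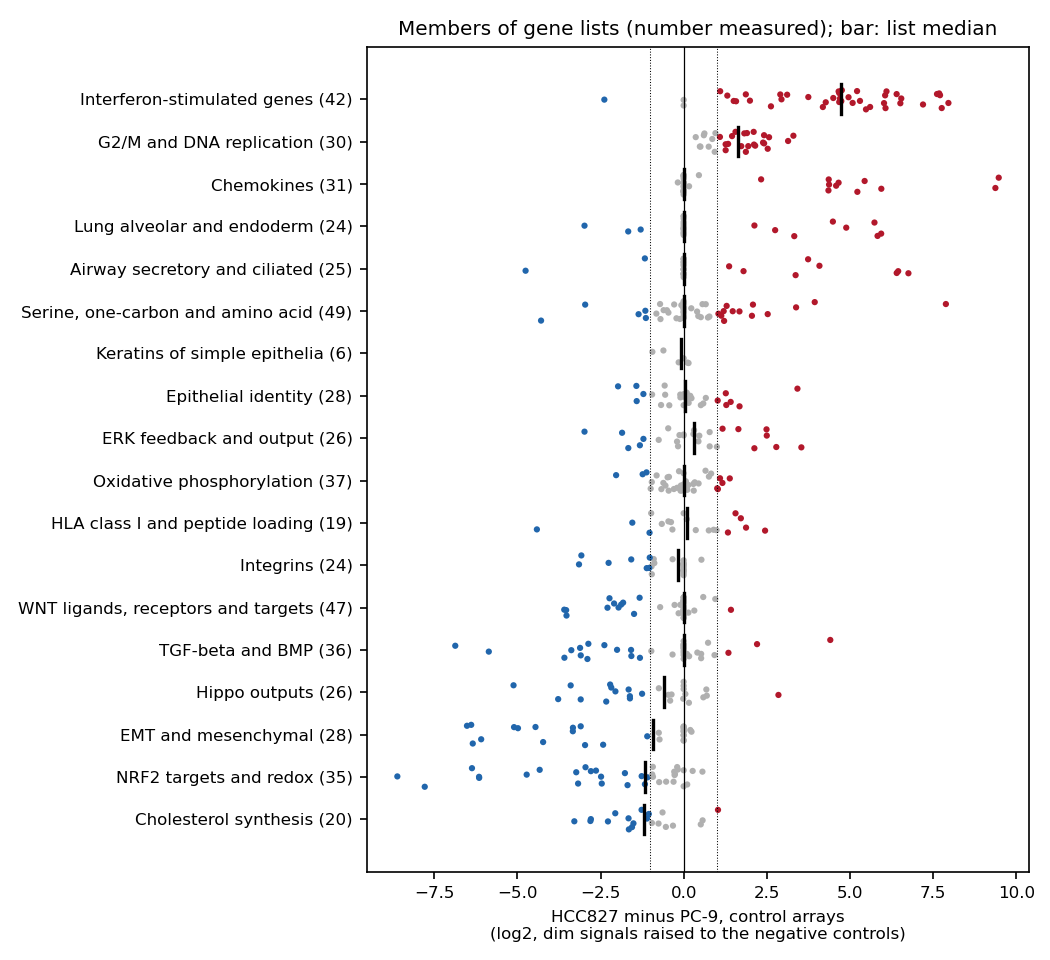
Each point is a measured member of 18 of the 47 gene lists, at its difference HCC827 minus PC-9 on the control arrays (log2, dim signals raised to the background), red where at least 2-fold higher in HCC827 and blue where higher in PC-9, with the list median as a bar. Interferon-stimulated genes (39 of 42 higher in HCC827) lie at the top, and EMT (14 of 28), NRF2 (19 of 35) and cholesterol synthesis genes (12 of 20 higher in PC-9) at the bottom.

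NRF2 targets and redox genes were the metabolic list with the most members higher in PC-9 by count. Of 35 measured, 19 (54.3%) were higher in PC-9 and 0 in HCC827, and 18 of the 19 kept the call on the erlotinib arrays. The list median was 13.20 in PC-9, 10.08 in HCC827 and 13.35 in H322. AKR1C1 had 15.47 in PC-9 and 7.68 in HCC827, AKR1C3 16.03 and 9.88, and AKR1C2 15.88 and 6.25. The AKR1C genes are close copies and so are AKR1B10 and AKR1B15, so the split of their signals is uncertain. GPX3, an extracellular glutathione peroxidase gene, stood at least 71.1-fold higher in PC-9. NQO1, a quinone reductase and standard NRF2 target, was high in both lines, at 14.93 and 13.84, and passed the threshold by little (2.12-fold). The ARE letters TGACNNNGC, the core of the NRF2 site, were found on either strand in 8 of 28 promoters of the list (28.6%) and in 14.6% of all promoters. Of the 16 list promoters of genes higher in PC-9, 5 held them. Among all genes higher in PC-9 the share was 14.2%, and among those higher in HCC827 it was 15.9%. In the wider list of detoxifying enzymes, 12 of 55 were higher in PC-9 (21.8%, against 10.6% of all genes) and 6 in HCC827 (10.9%, against 9.06%). ALDH3A1 and CYP4F11 were at least 42.6-fold and 68.4-fold higher in PC-9, and GSTM3 and GSTM4, members of a family of close copies, 21.7-fold and at least 23.9-fold. FMO5 and CYP3A5 were at least 9.85-fold and 3.39-fold higher in HCC827. ALDH1A1, a stem cell marker, was below background in both.

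Cholesterol synthesis genes were higher in PC-9 for 12 of 20 measured (60%, against 10.6% of all genes). Among genes above background in at least 1 line, 36.3% were called in either direction. Of the rest 1, PMVK, was 2.05-fold higher in HCC827 and 7 were not called, and all 20 were above background in at least 1 line. The list median was 13.49 in PC-9, 11.76 in HCC827 and 11.24 in H322. SQLE, the squalene epoxidase gene, was 9.76-fold higher in PC-9, IDI1 6.98-fold, ACAT2 6.92-fold and the transcription factor gene SREBF2, which drives the pathway, 4.85-fold. H322 lay within 2-fold of HCC827 alone for 8 of the 12. IDI1 also sits in a run of 7 genes on chromosome 10 that were all higher in PC-9.

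Fatty acid genes differed by enzyme. The desaturases FADS2, FADS3 and SCD5 were 10.3-fold, 10.9-fold and 40.0-fold higher in PC-9, and so was ACSS2, which makes acetyl-CoA from acetate (6.30-fold). The elongase ELOVL6 was 9.93-fold higher in HCC827. PLIN2, the coat protein of lipid droplets, had 4.06 in PC-9 and 12.32 in HCC827, and the fatty acid carrier FABP5 was at least 10.3-fold higher. In prostaglandin metabolism HPGD, which breaks prostaglandins down, was 77.6-fold higher in HCC827 along with PTGS2, whereas PTGR1 and ALOX5AP were higher in PC-9 by 62.9-fold and by at least 28.5-fold, and ALOX5 at least 3.89-fold higher in HCC827.

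Genes of glucose uptake and phosphorylation differed in both directions. SLC2A3, a high-affinity transporter gene with a near-identical copy (SLC2A14), had 14.11 in PC-9 and 6.36 in HCC827. SLC2A1 was high in both, at 15.61 and 14.61, and just reached 2-fold. The hexokinase gene HK1 was 6.56-fold and HKDC1 15.9-fold higher in PC-9, and HK2 4.81-fold higher in HCC827. PFKFB3, an activator of glycolysis, was 6.26-fold higher in HCC827. LDHA and LDHB were within 2-fold. Of 37 genes of oxidative phosphorylation 29 were not called. Another 5 were higher in HCC827 (13.5%, against 9.06% of all genes) and 3 in PC-9 (8.11%, against 10.6%).

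Of 49 amino acid genes 13 were higher in HCC827 (26.5%, against 9.06% of all genes) and 5 in PC-9 (10.2%, against 10.6%). PRODH, which opens proline breakdown, had 6.76 in PC-9 and 15.23 in HCC827. The kynurenine enzyme KMO was at least 15.4-fold and the transporter SLC6A14 at least 10.4-fold higher in HCC827, and SAT1, which acetylates polyamines, 5.76-fold. PC-9 had more BCAT1 of branched-chain amino acid breakdown (19.5-fold) and PHGDH, the first enzyme of serine synthesis (7.79-fold). PSPH, the last enzyme of that pathway and a neighbour of EGFR, was at least 2.19-fold higher in HCC827. Among metal genes, STEAP1 and STEAP2, metalloreductases, were 20.6-fold and 12.1-fold higher in HCC827 and ceruloplasmin (CP) at least 11.6-fold.

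The APOBEC3 cytidine deaminases formed a run of 4 on chromosome 22, all higher in PC-9: APOBEC3C 21.4-fold, APOBEC3D at least 32.7-fold, APOBEC3F 23.4-fold and APOBEC3G at least 21.8-fold. They are close copies and their probes may share signal. Interferon can induce some of them in other cells, and here they stood on the opposite side from the interferon-stimulated list. APOBEC3C had 14.39 in H322. The histone genes gave a run of the opposite sign on chromosome 6, where H3C7, H2BC9, H3C8 and H2BC10 were all higher in HCC827, by at least 10.2-fold, 2.72-fold, 6.28-fold and at least 3.28-fold.

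H322 served as a further point for the genes that differed. Of the 1603 genes higher in HCC827, H322 was within 2-fold of PC-9 alone for 571 and of HCC827 alone for 483. Of the 1881 genes higher in PC-9, it was within 2-fold of HCC827 alone for 718 and of PC-9 alone for 504. In either direction the H322 value lay more often with the lower line.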

How the data were processed

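Per the labels' protocols, total RNA was extracted with Trizol and biotinylated cRNA was hybridised to Clarion S arrays. Each probe set has a deposited linear intensity. The submitters' processing notes name Affymetrix Expression Console as the authors' tool. How it corrected background, summarised probes and scaled arrays, in which version and with which build, is not given in the sources used here. Array medians lay between 148 and 157, and a scaling that makes medians alike hides a shift shared by most genes.

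Of 24351 probe sets, 17709 had 1 gene symbol. The brightest was kept for 20 genes with several, which left 17687 genes. Differences of log2(intensity + 1), HCC827 minus PC-9, were taken with Python 3.11.15, numpy 2.4.6, pandas 2.3.3 and matplotlib 3.10.9. Before a fold was called, dim signals were raised to the 95th percentile of the array's own 612 negative controls. No test was possible with 1 array per line, and the number of arrays limits the precision. Nothing in the labels says whether cultures were separate. The counting was checked on a simulated copy of the PC-9 control array with little noise. Only genes far above background were changed there, by at least 4-fold. Of these, 200 of 200 were recovered, and 0 of the other genes among 17687 were called. Recovery was easy by that design, so it gives no error rate for the real arrays.

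The lines and the 47 gene lists were chosen with earlier results of these data known. Named genes are the 15 largest gaps in each direction, up to 4 called members of each list per direction, a panel of which 27 of 30 genes were measured, the 5 measured genes on each side of EGFR and CDKN2A, and runs of at least 4 called neighbours. The windows around CDK4 and NKX2-1, runs among genes above background in either line, interferon ligand genes, motifs and printed promoters were chosen after values had been seen. Promoters (250 bases before to 50 after the start, GRCh38.p14) came from RefSeq and matched 14236 genes. XIST and Y-linked genes were left out of the named genes. Alternatives covered the offset, scaling, floor, fold threshold, probe sets and the erlotinib arrays.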

Additional observations from a re-analysis of the deposited data

Results flagged for a closer look

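TNFSF15, a TNF family cytokine, was called in opposite directions between the lines with and without erlotinib, and was the 1 gene of the 3484 called on the control arrays for which this held. On the control arrays its signal was 10.90 in PC-9 and 9.72 in HCC827, a log2 difference of -1.18. On the erlotinib arrays it was 7.71 in PC-9 and 10.20 in HCC827, a log2 difference of 2.49. Each value is 1 array and the difference was not tested.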

How the results depend on the processing

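No paired analysis was possible because each line and treatment has 1 array. The 1603 genes higher in HCC827 and 1881 higher in PC-9 became 784 and 1091 with the floor at the 99th percentile of the negative controls, and 495 and 656 at a 4-fold threshold. The other alternatives gave 1553 to 1828 genes higher in HCC827 and 1704 to 2143 higher in PC-9. Centring each array on its median gave 1749 and 1718, so which line has more higher genes depends on the scaling, whose method is unknown here. Of 382 named genes that were called, 268 stayed called with the stricter floor, 372 with centring, 372 with quantile normalisation and 341 on the erlotinib arrays, and none was called in the opposite direction. ETV5 changed sign on the erlotinib arrays, to 0.44, and the cause was not tested. Dim signals limit the comparison: 8079 genes were above background in neither line, and no difference between the lines could be seen for them.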
